A study of Mus musculus with 9 samples.

Results

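The genes described here encode the proteins that join neighbouring cells in the liver: the claudins (Cldn genes), occludin (Ocln), the junctional adhesion molecules (F11r, Jam2 and Jam3), tight junction scaffolds (among them Tjp1, Tjp3 and cingulin, Cgn), the classical cadherins Cdh1 and Cdh2, and the connexins (Gja, Gjb and Gjc genes). They were picked out by gene symbol, with earlier results of these data known, and 41 of the 27945 genes with a count in any library carried such a symbol. Of these, 29 had enough counts to be compared and 12 did not. The 29 were 10 of 19 claudins, 9 of 12 connexins, all 4 of occludin and the adhesion molecules, all 4 scaffolds and both cadherins. A further 8 genes with symbols of these families, among them Cldn9, Cldn16, Cldn17, Cldn18, Gja3 and Gjb5, had 0 counts in all 9 libraries and are not among the 41.

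The study concerned liver damage from gefitinib, an inhibitor of the EGF receptor kinase used against lung cancer, and sequenced polyadenylated RNA of mouse liver in 3 groups, control, model and treated, of 3 libraries each. The series title ties the damage to gefitinib, but the labels give no agent, dose, time, strain, sex or age for any group, so the groups are named here as labelled, and what the treated mice received is not stated. The sample titles read mouse liver cells and do not say whether cells were isolated from the tissue. Nothing in the labels ties each library to its own mouse. A p-value here therefore sets a group difference only against the scatter within groups of these 9 libraries. Between libraries of the same group, chi-square per degree of freedom over genes was 82.6 to 171, far above what counting error alone gives. That scatter may still be technical, and how much of it came from separate mice was not tested. The libraries held 56440871 to 60665156 estimated counts. The 12 hepatocyte markers summed to between 84127 and 121120 CPM, counts scaled to library size, in every library.

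A sheet of epithelial cells is sealed by tight junctions, in which claudins form the strands that set which ions and solutes pass between cells, while occludin and the adhesion molecules add to the strands and the scaffold proteins tie them to actin. In liver these strands close the bile canaliculus, the channel between hepatocytes into which bile is secreted, and keep bile apart from blood. Connexins form gap junctions, channels through which hepatocytes exchange ions and small metabolites, and cadherins hold the cells together by binding across the gap between them.

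The starts of 4 of these genes are shown because their levels carry most of what follows: Cldn2, Cldn3 and Gjb2 had their highest levels in model livers, and Cldn5 was lower in the treated than in the model group. Each line gives the 250 bases before the gene's start in the RefSeq annotation of build GRCm38.p6, 5′ to 3′ on the gene's own strand. They lie at chrX:139800558-139800807 (plus strand, Cldn2), chr5:134985964-134986213 (plus, Cldn3), chr14:57104703-57104952 (minus, Gjb2) and chr16:18776597-18776846 (plus, Cldn5). Capitals mark letters that match the TATA box (TATAAA), the CCAAT box, the GC box (GGGCGG) or the E-box (CANNTG, where N is any base), read on either strand.
Cldn2: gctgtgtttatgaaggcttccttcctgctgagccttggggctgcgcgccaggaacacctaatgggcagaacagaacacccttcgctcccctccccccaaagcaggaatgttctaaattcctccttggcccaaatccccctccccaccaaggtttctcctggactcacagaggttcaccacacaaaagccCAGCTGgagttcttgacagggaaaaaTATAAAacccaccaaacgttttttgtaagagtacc
Cldn3: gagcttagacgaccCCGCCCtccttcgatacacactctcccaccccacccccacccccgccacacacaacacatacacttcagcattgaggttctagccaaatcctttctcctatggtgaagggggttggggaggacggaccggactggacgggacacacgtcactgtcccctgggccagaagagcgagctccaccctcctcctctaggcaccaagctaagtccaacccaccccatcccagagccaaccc
Gjb2: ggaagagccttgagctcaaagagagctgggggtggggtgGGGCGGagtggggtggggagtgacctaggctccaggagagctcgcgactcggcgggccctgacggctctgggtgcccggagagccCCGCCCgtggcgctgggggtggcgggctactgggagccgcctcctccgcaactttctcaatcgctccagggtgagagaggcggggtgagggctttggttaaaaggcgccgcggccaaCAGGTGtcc
Cldn5: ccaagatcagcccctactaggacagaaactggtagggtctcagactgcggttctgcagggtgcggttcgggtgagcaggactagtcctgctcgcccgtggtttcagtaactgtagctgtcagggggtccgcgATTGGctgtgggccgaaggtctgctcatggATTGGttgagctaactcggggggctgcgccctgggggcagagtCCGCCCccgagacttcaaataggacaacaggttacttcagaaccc

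Among the 4, TATAAA stood only in Cldn2, starting 35 bases before the gene's start, and 12.4% of the 32851 promoters in the same table hold it. Cldn2 and Gjb2 each held 1 CANNTG (66.2% of all promoters). GGGCGG, found in 32.7% of promoters, stood 1 time in Cldn3, 1 time in Cldn5 and 2 times in Gjb2. CCAAT, found in 33.8%, stood 2 times in Cldn5. GTTAAT, searched in the same way and found in 6.43% of promoters, matched none of the 4 windows. The GC content was 52% in Cldn2, 60.8% in Cldn3, 69.2% in Gjb2 and 59.6% in Cldn5, against a median of 52.4% over all promoters. These are matches of letters, and no binding was measured. Promoter entries existed for 30 of the 41 genes.

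Levels of different genes were compared by FPKM, which divide fragment counts by gene length and library size. Over the 9 libraries Gjb1, the main connexin of hepatocytes, averaged 295 FPKM, and its partner Gjb2, also a hepatocyte connexin, 60.6 FPKM. Among claudins the order was Cldn3 (50.8 FPKM), Cldn2 (15.7), Cldn1 (15.025), Cldn12 (11.3), Cldn14 (5.60) and Cldn5 (2.13). Cldn2 and Cldn1, neighbours in that order, changed places between groups, with Cldn1 above Cldn2 in control livers (17.9 ± 2.39 and 12.7 ± 1.97 FPKM, SD, n = 3) and below it in model livers (14.3 ± 3.21 and 20.3 ± 0.542 FPKM). F11r, an adhesion molecule of epithelia, endothelium and blood cells, stood at 28.2 FPKM, Tjp3 at 7.40, Cdh2 at 7.15, Cdh1 at 6.69, Cgn at 5.87, Ocln at 4.19 and Tjp1 at 2.87 FPKM. Cdh1 and Cdh2 were closer to each other than the spread of Cdh1 between libraries.

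Calls were made with edgeR's quasi-likelihood test on all 18113 genes that passed the filter on low counts, at a Benjamini-Hochberg adjusted p under 0.05. In model compared with control livers 1.12% of all tested genes were called, and 3 of the 29 junction genes, 1 higher (0.519% of all genes were called higher) and 2 lower (0.596% lower). In treated compared with model livers 9.65% of all genes were called, and 4 junction genes, all lower (5.21% of all genes were higher and 4.44% lower). No junction gene was called higher there with edgeR, while 2 were higher at an unadjusted p under 0.05, 2 by DESeq2 and 0 by limma-voom. In treated compared with control livers 17.8% of all genes were called, and 9 junction genes, 1 higher (9.36% of all genes) and 8 lower (8.47%). The median log2 fold change of the 29 was -0.11, -0.07 and -0.10 in these comparisons, where that of all genes was 0.00, 0.01 and -0.01. The comparisons share libraries: the model group enters the first and the second, so a level that is high in model livers gives opposite signs in them.

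**Figure D1:**
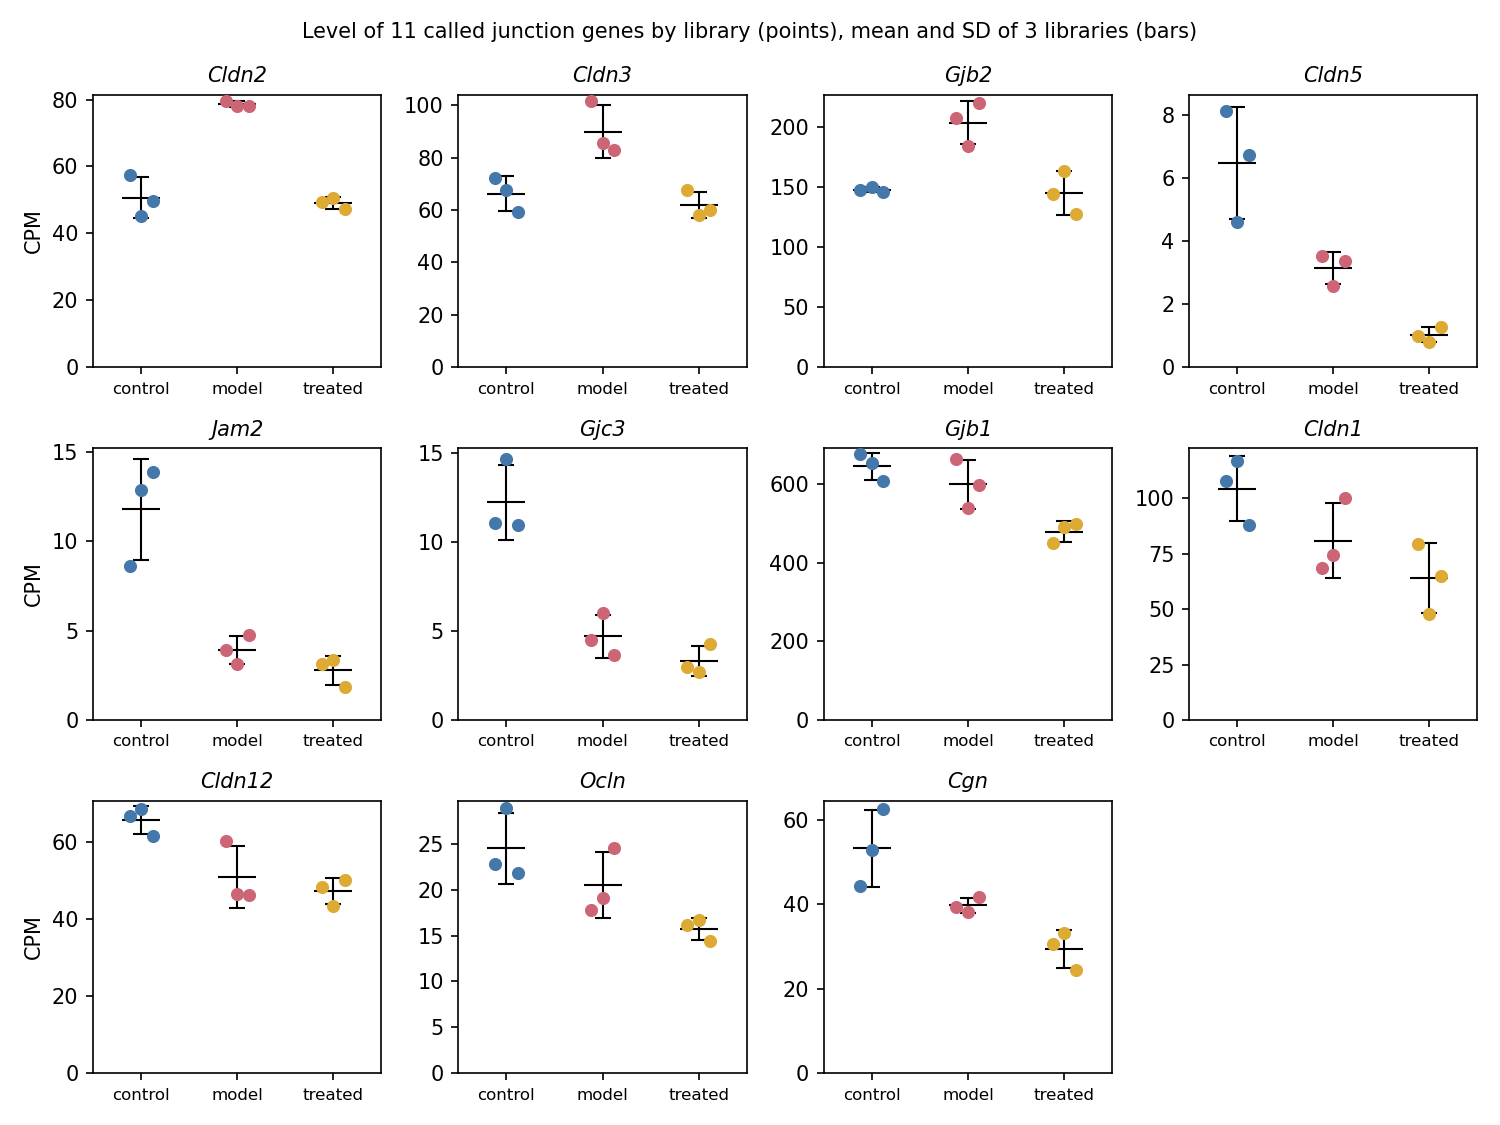
CPM (y axis, from 0) of 11 junction genes called in at least 1 comparison, by group (x axis); points are libraries, and bars give the mean and SD of 3 libraries. Cldn2, Cldn3 and Gjb2 have all 3 model libraries above every control and treated library, and Cldn5 steps down from control to model to treated without overlap.

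Cldn2 (chromosome X, 139800828 to 139811386), which forms channels for cations and water, was the only junction gene called higher in model than in control livers. It had 57.4, 45.1 and 49.6 CPM in the control, 79.6, 78.2 and 78.2 CPM in the model and 49.4, 50.7 and 47.3 CPM in the treated libraries. The model libraries lay above all others and within a narrow range, and the control and treated ranges overlapped. Cldn2 rose 1.55-fold in model over control (log2 fold change 0.63, SE 0.10, adjusted p = 0.0167) and was 1.60-fold lower in treated than in model livers (log2 fold change -0.68, SE 0.10, adjusted p = 0.00235). Treated differed from control by a log2 fold change of -0.05, with a 95% interval from -0.26 to 0.17. The call against control ended when control replicate 2 or 3 or any 1 model library was left out (highest adjusted p = 0.0640), and that against model held in every alternative tried.

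Cldn3 (chromosome 5, 134986214 to 134987472), a barrier-forming claudin of hepatocytes and bile ducts, had the same order of groups. It stood at 72.2, 67.7 and 59.1 CPM in control, 101.8, 85.5 and 82.9 CPM in model and 67.5, 58.2 and 59.9 CPM in treated livers. Again the model libraries were the 3 highest, with no overlap with either other group. Cldn3 fell 1.45-fold in treated compared with model livers (log2 fold change -0.54, SE 0.12, adjusted p = 0.0157), a call lost without TMM scaling and without model replicate 1 or treated replicate 2 or 3 (highest adjusted p = 0.0832). Model against control was 1.36-fold and was not called (adjusted p = 0.101 with edgeR, 0.0281 with DESeq2). The interval of treated against control ran from -0.35 to 0.16 on the log2 scale.

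Cldn1 (chromosome 16, 26356642 to 26371841), a barrier claudin of the bile canaliculus, and Cldn12 (chromosome 5, 5489537 to 5514912), a claudin whose end lacks the usual scaffold-binding motif, were lower in treated than in control livers. Cldn1 had 108, 117 and 88.2 CPM in control, 68.6, 74.3 and 100.1 CPM in model and 79.6, 47.9 and 65.0 CPM in treated livers, so every treated library lay below every control library and model overlapped both. It fell 1.63-fold (log2 fold change -0.70, SE 0.20, adjusted p = 0.0371). Cldn12 had 66.8, 68.4 and 61.4 CPM in control, 60.2, 46.4 and 46.1 CPM in model and 48.3, 43.4 and 49.95 CPM in treated livers, and fell 1.39-fold (log2 fold change -0.47, SE 0.12, adjusted p = 0.0193). Model and treated libraries of Cldn12 overlapped, and both lay below the control libraries. Both calls rest on the scaling: without TMM the adjusted p was 0.131 for Cldn1 and 0.135 for Cldn12. Cldn1 was also not called when control replicate 1 or 2, model replicate 2 or treated replicate 2 or 3 was left out. Leaving out control replicate 1 or 2 or treated replicate 2 ended the call of Cldn12.

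Cldn14, a barrier-forming claudin, ranged from 9.99 to 15.3 CPM in control, 10.3 to 16.0 CPM in model and 12.4 to 19.1 CPM in treated livers, with overlapping groups and intervals of -0.57 to 0.44, -0.23 to 0.78 and -0.29 to 0.71 on the log2 scale for model over control, treated over model and treated over control. The remaining 4 tested claudins were low. Cldn7, Cldn10 and Cldn23 stayed under 1 CPM in every library, and Cldn15, a channel-forming claudin of the gut, ranged from 0 to 1.42 CPM. Their standard errors were 0.85 to 1.66 on the log2 scale, and the widest interval, of Cldn23 in model against control livers, ran from -5.04 to 2.29.

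Of the 9 claudins below the filter, Cldn4, an epithelial claudin of ducts and gut, had the highest counts: 0, 4 and 2 in control, 6, 7 and 4 in model, and 78, 91 and 0 in treated livers. Treated replicates 1 and 2 stood apart from the other libraries, and treated replicate 3 had no count. The others had at most 24 counts in any library. Cldn6 had 7, 0 and 0 counts in control, 11, 0 and 0 in model and 0, 15 and 8 in treated livers, and Cldn8 had 4, 6 and 7, then 24, 2 and 0, then 14, 0 and 8. Cldn11, Cldn13, Cldn19, Cldn20, Cldn22 and Cldn24 reached 8, 8, 4, 5, 1 and 2 counts. A listed 0 allows up to 3 counts, or 0.0440 to 0.0577 CPM depending on the library, by counting error alone.

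As a share of all claudin FPKM, Cldn3 made up 45.2% ± 1.05 in control, 53.8% ± 3.18 in model and 50.4% ± 1.68 in treated livers (SD, n = 3). Cldn2 made up 13.1% ± 1.4997, 17.9% ± 0.790 and 15.2% ± 1.47, Cldn1 18.5% ± 1.63, 12.7% ± 3.06 and 13.5% ± 2.41, and Cldn12 13.3% ± 0.508, 9.04% ± 0.910 and 11.5% ± 0.544. The ratio of Cldn2 to Cldn1 was 0.718 ± 0.137 in control, 1.45 ± 0.285 in model and 1.17 ± 0.332 in treated livers. The lowest model ratio, 1.14, was above the highest control ratio, 0.819. Summed claudin FPKM was 96.4 ± 9.07 in control, 113 ± 2.26 in model and 94.4 ± 9.31 in treated livers. Shares of a whole depend on each other, and these values were not tested. The FPKM were used as deposited, without the TMM scaling of the CPM. TMM factors were 0.905 to 0.978 in control and 1.05 to 1.14 in treated libraries, so the 2 units can order groups differently. Gjb2, for example, averaged 51.0 FPKM in control and 58.4 FPKM in treated livers, but 148 and 145 CPM.

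**Figure D2:**
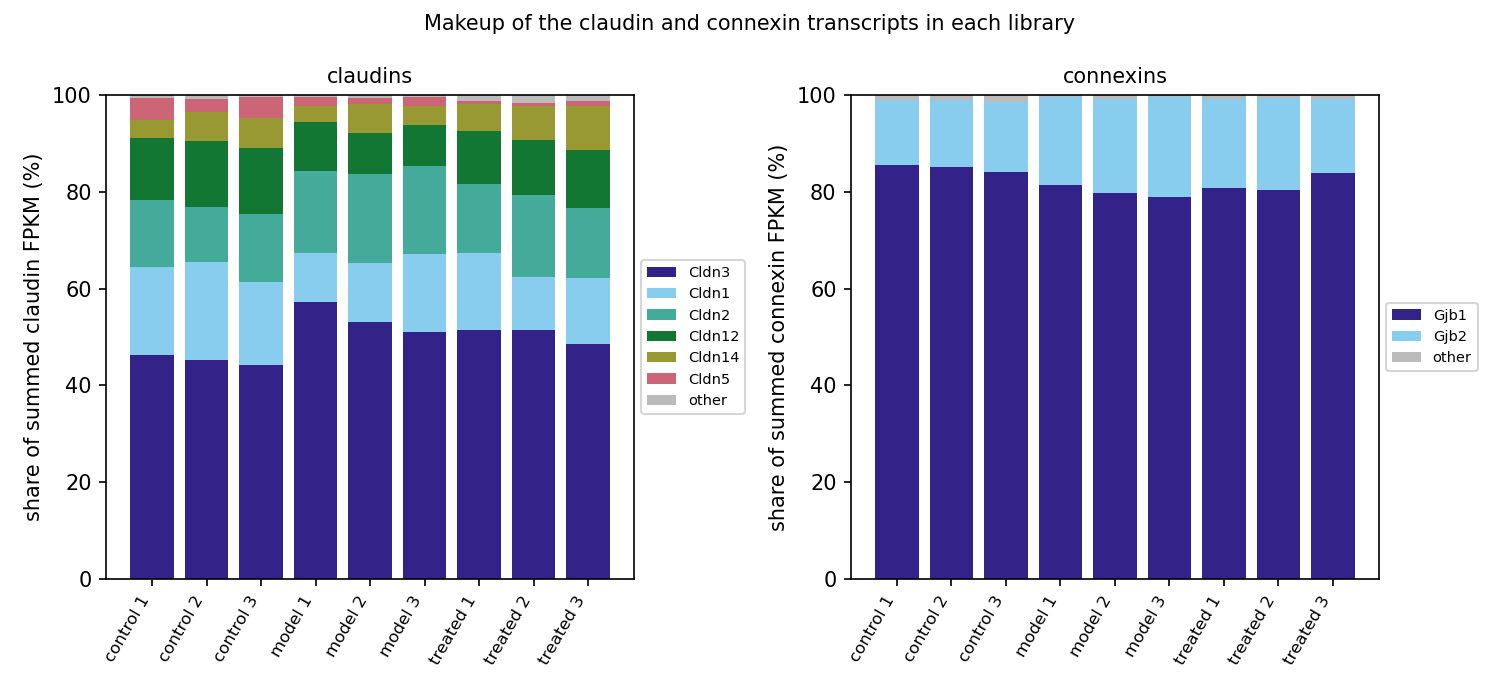
Share of summed claudin FPKM (left, y axis in percent) and of summed connexin FPKM (right) held by the main genes in each of the 9 libraries (x axis). Cldn3 holds the most in every library, at 45.2% of the claudin total in control and 53.8% in model livers on average, and Gjb1 holds 84.9% of the connexin total in control and 80.0% in model livers.

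Gjb1 (chromosome X, 101376378 to 101385629) and Gjb2 (chromosome 14, 57098600 to 57104702) build the gap junctions between hepatocytes, and their groups stood in different orders. Gjb2 had 148, 150.03 and 146 CPM in control, 208, 184 and 220.1 CPM in model and 144, 164 and 127 CPM in treated livers. All model libraries were above all others, and control and treated overlapped. Gjb2 fell 1.41-fold in treated compared with model livers (log2 fold change -0.49, SE 0.11, adjusted p = 0.0232). That call ended without TMM scaling and when model replicate 1 or 3 or treated replicate 1 or 3 was left out (highest adjusted p = 0.107). Model against control was 1.38-fold and not called (adjusted p = 0.0856 with edgeR, 0.00749 with DESeq2), and treated against control had an interval of -0.28 to 0.22 on the log2 scale.

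Gjb1 had 675, 653 and 607 CPM in control, 663, 539 and 596 CPM in model and 449, 490.3 and 497 CPM in treated livers. The treated libraries were the 3 lowest, and control and model overlapped. Gjb1 fell 1.35-fold in treated compared with control livers (log2 fold change -0.43, SE 0.11, adjusted p = 0.0226), a call lost without TMM scaling (adjusted p = 0.152) and when control replicate 1 or 2 or treated replicate 1 was left out. Treated against model was not called (adjusted p = 0.0986 with edgeR, 0.0402 with DESeq2). The ratio of Gjb2 to Gjb1 FPKM was 0.155, 0.163 and 0.171 in control, 0.223, 0.243 and 0.262 in model, and 0.228, 0.237 and 0.182 in treated livers, so every model and treated ratio was above every control ratio. Summed connexin FPKM, also without TMM scaling, was 369 ± 23.8, 375 ± 22.7 and 332 ± 9.87.

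Gjc3 (chromosome 5, 137953461 to 137963098), a connexin best known from the myelinating cells of nerves, stood at 11.1, 14.7 and 10.97 CPM in control, 4.47, 6.01 and 3.62 CPM in model and 2.96, 2.67 and 4.27 CPM in treated livers. Control libraries lay above all others, and model and treated overlapped. It fell 2.60-fold in model (log2 fold change -1.38, SE 0.25, adjusted p = 0.0306) and 3.71-fold in treated compared with control livers (log2 fold change -1.89, SE 0.26, adjusted p = 0.000716). The second call held in every alternative tried, and the first ended when control replicate 2 or 3 or any 1 model library was left out (highest adjusted p = 0.107). The 6 Schwann cell and nerve markers summed to 9.00 to 10.95 CPM in control, 6.66 to 7.82 in model and 11.3 to 13.0 CPM in treated livers, so in treated livers, where Gjc3 was lower, they were not.

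The other tested connexins were lower in level and none was called. Gja1, the connexin of stellate, endothelial and many other cells, had 3.27, 3.27 and 4.78 CPM in control, 0.793, 2.15 and 1.17 CPM in model and 2.48, 3.74 and 2.36 CPM in treated livers. Every model library was below every control and treated library, and treated and control overlapped (adjusted p = 0.101 for model against control and 0.113 for treated against model with edgeR; both passed with DESeq2, at 0.0112 and 0.0464). Gja4, an arterial connexin, averaged 3.09 ± 1.82, 1.53 ± 0.234 and 2.03 ± 0.315 CPM. Gja5, Gja6 and Gjc1 averaged under 1 CPM in each group. Gjb6 and Gja10 were below the filter, with at most 10 and 24 counts in a library.

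Ocln (chromosome 13, 100496507 to 100552718), the membrane protein of tight junction strands, had 22.8, 29.0 and 21.9 CPM in control, 17.8, 19.2 and 24.6 CPM in model and 16.2, 16.7 and 14.4 CPM in treated livers. The treated libraries were the 3 lowest. Ocln fell 1.56-fold in treated compared with control livers (log2 fold change -0.64, SE 0.16, adjusted p = 0.0162), a call lost without TMM scaling (adjusted p = 0.0765) and when control replicate 2 or treated replicate 3 was left out. F11r ranged from 75.4 to 94.9 CPM over the 9 libraries and its groups overlapped, with intervals of -0.15 to 0.36, -0.33 to 0.18 and -0.23 to 0.28 on the log2 scale. Jam3, found on endothelial and mesenchymal cells, ranged from 0.192 to 1.25 CPM and was not called.

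Tjp1 and Tjp3, scaffold proteins that bind the ends of claudins and link them to actin, were not called in any comparison. Tjp1 stood at 25.9 ± 3.53, 25.5 ± 4.69 and 24.9 ± 1.90 CPM in control, model and treated livers, with an interval of -0.39 to 0.27 on the log2 scale for treated against control. Tjp3 stood at 30.9 ± 5.79, 29.4 ± 1.15 and 32.6 ± 8.16 CPM. Tjp3 overlaps Apba3 on the other strand, so its counts are uncertain where the strand setting is not known.

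Cgn (chromosome 3, 94760069 to 94786492), cingulin, which links tight junctions to actin and microtubules, was lower in treated than in control livers. It had 44.3, 52.9 and 62.6 CPM in control, 39.4, 38.1 and 41.7 CPM in model and 30.5, 33.1 and 24.4 CPM in treated livers, and the groups did not overlap. Cgn fell 1.82-fold in treated compared with control livers (log2 fold change -0.86, SE 0.14, adjusted p = 0.00239), which held in every alternative tried. Model against control was -0.42 on the log2 scale and treated against model -0.44, and neither passed (adjusted p = 0.211 and 0.0833).

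Neither cadherin was called in any comparison with edgeR. Cdh2, which hepatocytes carry beside Cdh1, ranged from 53.2 to 75.9 CPM over the 9 libraries, with intervals of -0.24 to 0.32, -0.24 to 0.33 and -0.20 to 0.37 on the log2 scale. Cdh1, E-cadherin of periportal hepatocytes and bile ducts, had 25.1, 41.1 and 10.5 CPM in control, 35.2, 26.7 and 54.04 CPM in model and 49.8, 39.1 and 27.2 CPM in treated livers. Its control libraries differed among themselves more than the group means did, and its interval for treated against control ran from -0.61 to 1.80.

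**Figure D3:**
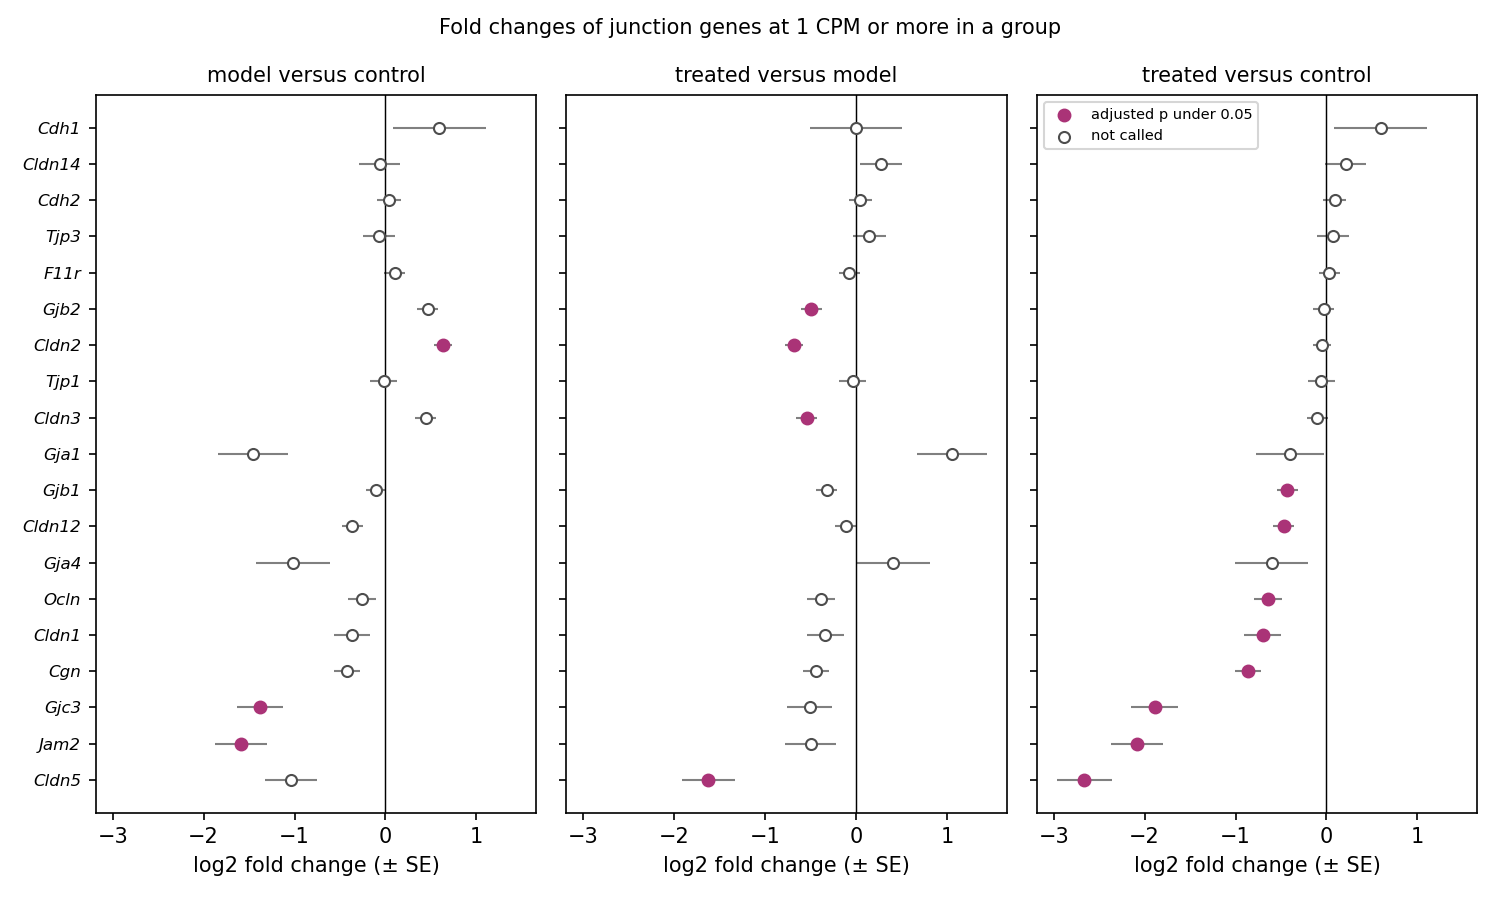
Log2 fold change (x axis, bars ± SE) of 19 junction genes (y axis) at 1 CPM or more in a group mean, in the 3 comparisons; filled points passed an adjusted p of 0.05 in edgeR. Cldn5, Jam2 and Gjc3 lie farthest to the left in treated versus control (-2.66, -2.09 and -1.89).

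Cldn5 (chromosome 16, 18776847 to 18778262), the main claudin of endothelial cells, had 8.13, 4.595 and 6.72 CPM in control, 3.51, 2.56 and 3.38 CPM in model and 0.997, 0.794 and 1.27 CPM in treated livers. The groups did not overlap. Cldn5 fell 3.08-fold in treated compared with model livers (log2 fold change -1.62, SE 0.30, adjusted p = 0.00732) and 6.33-fold compared with control livers (log2 fold change -2.66, SE 0.30, adjusted p = 0.000268). Both calls held in every alternative tried. Model against control was -1.04 on the log2 scale and not called (adjusted p = 0.115 with edgeR, 0.0203 with DESeq2).

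Jam2 (chromosome 16, 84774123 to 84825928), an adhesion molecule of endothelial junctions, had 8.60, 12.8 and 13.9 CPM in control, 3.91, 3.11 and 4.72 CPM in model and 3.15, 3.33 and 1.83 CPM in treated livers. The control libraries lay above all others, and model and treated overlapped. Jam2 fell 3.01-fold in model (log2 fold change -1.59, SE 0.28, adjusted p = 0.0276) and 4.25-fold in treated compared with control livers (log2 fold change -2.09, SE 0.29, adjusted p = 0.000787). The second call held in every alternative tried, and the first ended when control replicate 2 or 3 or any 1 model library was left out (highest adjusted p = 0.113).

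Markers of endothelial cells moved beside these genes. The 14 endothelial markers, none of them a junction gene of the 41, summed to 376 to 437 CPM in control, 168 to 184 in model and 91.7 to 131 CPM in treated livers. Of the 14, 6 (42.9%) were lower in model than in control livers. In treated livers 4 (28.6%) were lower than in model and 13 (92.9%) lower than in control livers. Of all genes 0.596%, 4.44% and 8.47% were called lower in these comparisons. The median log2 fold changes of the 14 were -1.30, -0.62 and -1.83. None was called higher by edgeR, at an unadjusted p under 0.05, by DESeq2 or by limma-voom. The part of these markers in the falls of Cldn5 and Jam2 was not tested, and in bulk RNA fewer cells of a type and less RNA per cell cannot be told apart. Gja4 and Gja1 did not follow the order of the marker sum, as both had a higher mean in treated than in model livers. Neither was called there with edgeR, with log2 intervals of -0.48 to 1.30 for Gja4 and 0.22 to 1.90 for Gja1. Of the 14 markers, Vwf and Lyve1 shared this order (log2 fold changes 0.73 and 0.37, treated against model, not called). The other markers had lower means in treated than in model livers.

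**Figure D4:**
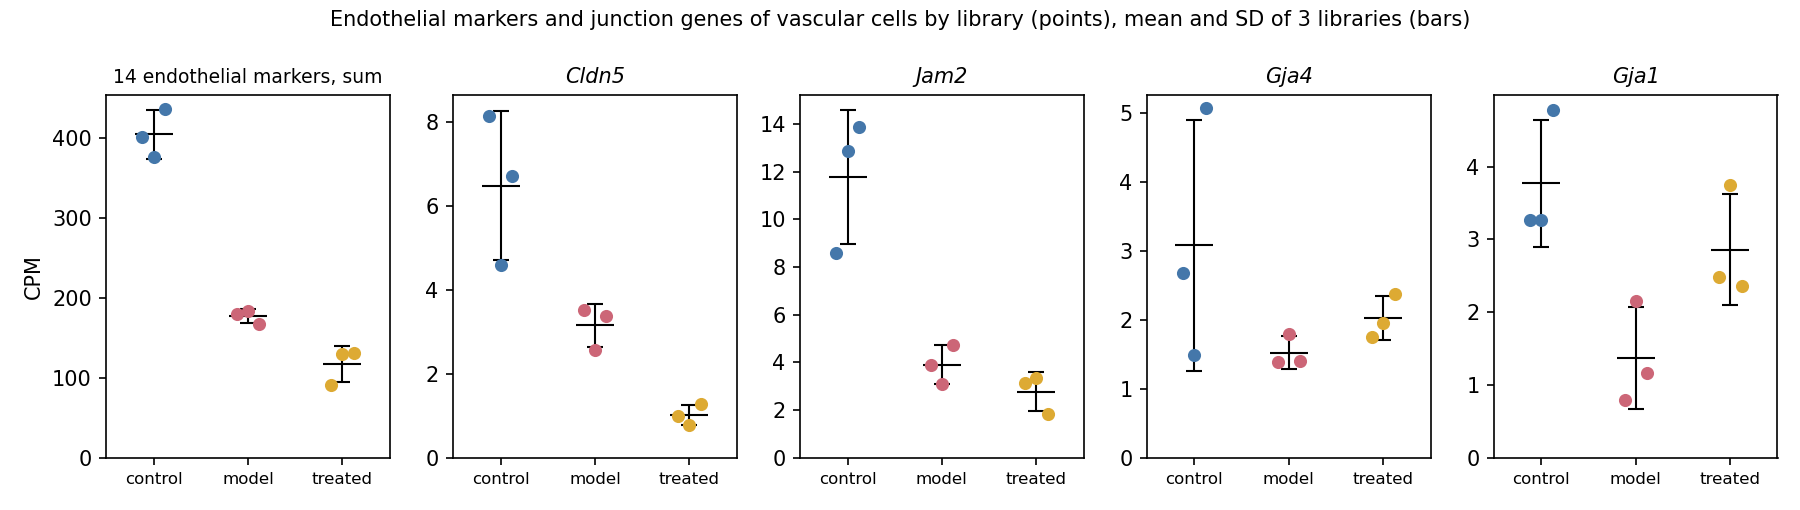
CPM (y axes, from 0) of 14 summed endothelial markers and of Cldn5, Jam2, Gja4 and Gja1 by group (x axes); points are libraries, and bars give the mean and SD of 3 libraries. The marker sum and Cldn5 descend from control through model to treated without overlap, whereas Gja1 is lowest in model livers.

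Other marker lists moved with the groups too. The summed hepatocyte markers were at 108550 to 121120 CPM in control, 109270 to 113700 in model and 84127 to 104430 CPM in treated livers. In treated against control livers Gjb1, Cldn1, Cldn12, Ocln and Cgn were called lower. F11r, Cdh2, Tjp1, Tjp3, Cldn2, Cldn3 and Gjb2 were not called there. Of the 12 hepatocyte markers 4 were called lower and 0 higher in treated than in control livers (8.47% and 9.36% of all genes). Alb averaged 58495 CPM in control and 49871 CPM in treated livers, and Tat 571 and 1494 CPM. The 12 macrophage markers summed to 284 to 437, 417 to 535 and 834 to 1101 CPM. Of these, 4 were called higher and 0 lower in treated than in control livers (9.36% and 8.47% of all genes). Lyz2 averaged 24.6 CPM in control and 261 CPM in treated livers, and Adgre1 5.58 and 6.04 CPM. The 12 stellate cell and fibroblast markers summed to 257 to 337, 195 to 225 and 412 to 474 CPM. Here 4 were called higher and 2 lower in treated than in control livers. Col3a1 averaged 31.9 CPM in control and 147 CPM in treated livers, and Lrat 10.6 and 4.20 CPM. The 12 cholangiocyte markers, of the cells that line bile ducts, summed to 50.4 to 67.6, 42.8 to 71.1 and 54.8 to 79.0 CPM. Of the 10 tested, 1 (10%) was called, lower in treated than in control livers, against 8.47% of all genes. The part of these cell types in the junction genes was not tested. The 9 skeletal muscle markers summed to 0.626 to 1.38 CPM in control livers and 0.997 and 1.10 CPM in model replicates 3 and 2, but to 204 CPM in model replicate 1 and 135 to 177 CPM in the treated libraries. When model replicate 1 was left out, Cldn2, Jam2 and Gjc3 lost their calls in model against control livers, and Cldn3 and Gjb2 theirs in treated against model livers. The log2 fold changes without it were 0.63, -1.59 and -1.34 for the first 3 genes and -0.44 and -0.48 for the others. Leaving out model replicate 2 or 3, whose muscle markers were near the control level, also ended the calls of Cldn2, Jam2 and Gjc3. The call of Cldn3 was kept without either of them, and that of Gjb2 ended without model replicate 3. Leaving out any library also leaves fewer to compare, and the part of muscle RNA in these calls was not tested.

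The deposited table also divides each gene's counts between its transcripts. All counts of Cldn2, Cldn3, Cldn5 and Gjb2 went to 1 transcript each. For Gjb1, whose 2 main transcripts are both protein-coding, one transcript held 72.3% to 98.3% of the counts in 7 libraries but 4.23% in model replicate 2 and 4.08% in treated replicate 2. Summed over transcripts, Gjb1 stood at 539 CPM in model replicate 2 and 490.3 CPM in treated replicate 2. The transcript shares are estimates and were not tested.

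**Figure D5:**
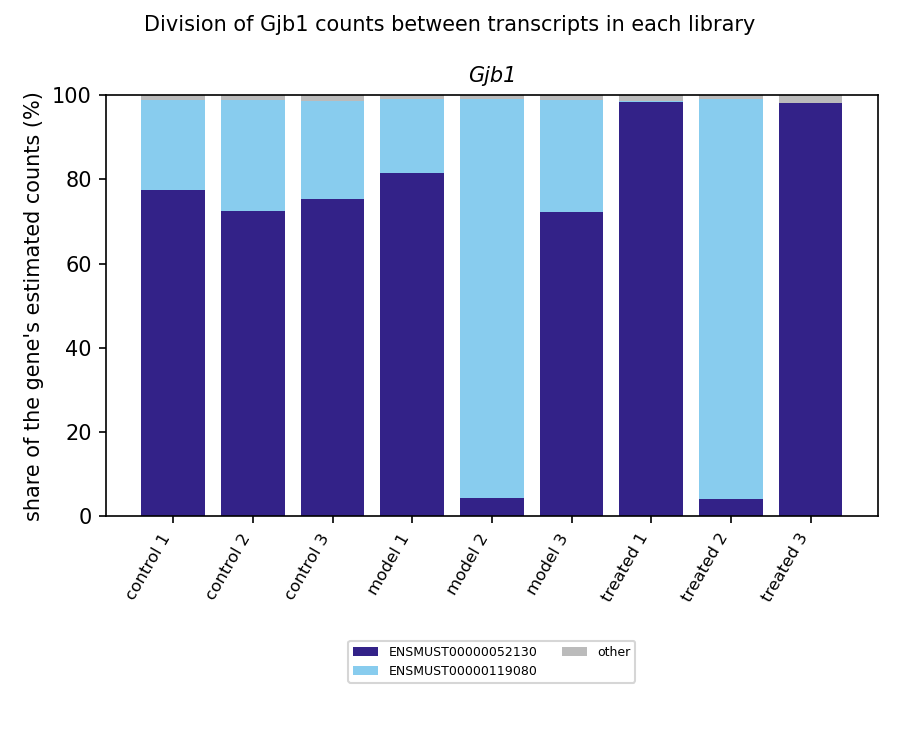
Share of the estimated counts of Gjb1 assigned to each transcript (y axis, percent) in the 9 libraries (x axis). In model replicate 2 and treated replicate 2 most counts sit on another transcript than in the remaining 7 libraries: the leading transcript holds 4.23% and 4.08% there.

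Among 58 further tested junction genes, those of tricellular junctions, tight junction scaffolds and polarity, adherens junctions, desmosomes and pannexins, none rose and 2 fell in model compared with control livers with edgeR (4 higher and 4 lower at an unadjusted p under 0.05, 1 and 3 by DESeq2, 0 and 2 by limma-voom). The 2 were 3.45% of the 58, against 0.596% of all genes. In treated livers 2 of the 58 were higher (3.45%, against 5.21% of all genes) and 3 lower (5.17%, against 4.44%) than in model livers. Against control livers 7 were higher (12.1%, against 9.36%) and 7 lower (12.1%, against 8.47%), so the shares of treated livers lay near those of all genes. Their median log2 fold changes were 0.06, 0.01 and 0.06.

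The 2 that fell in model livers were Esam, an adhesion molecule of endothelial cells, and Amotl2, a scaffold of the angiomotin family. Esam was at 10.1 ± 1.00 CPM in control, 4.25 ± 0.984 in model and 3.48 ± 0.287 CPM in treated livers, and fell 2.37-fold in model (adjusted p = 0.0219) and 2.90-fold in treated compared with control livers (adjusted p = 0.000835). It moved beside the endothelial markers given above. Amotl2 fell 2.03-fold (adjusted p = 0.0206). Both model calls ended when control replicate 2 or 3 or model replicate 1 or 2 was left out.

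Among scaffold and polarity genes Prkcz, an atypical protein kinase C, averaged 16.9 ± 1.86 CPM in model livers and fell to 9.21 ± 0.295 CPM in the treated group (adjusted p = 0.00184), and Mpdz, a scaffold with many PDZ domains, from 21.9 ± 1.15 to 12.7 ± 0.681 CPM (adjusted p = 0.00244). Arhgef2, a guanine nucleotide exchange factor held at tight junctions by cingulin, rose from 5.35 ± 0.480 to 14.3 ± 1.41 CPM (adjusted p = 0.00328). Against control livers 2 of the 23 were called higher, where 9.36% of all genes were, and 5 lower, where 8.47% of all genes were. Among tricellular and accessory proteins Cxadr, an adhesion molecule and virus receptor, and Lsr, which recruits proteins to tricellular contacts, rose 1.59-fold and 1.47-fold in treated over control livers (adjusted p = 0.0114 and 0.0192), and the call of Lsr ended when control replicate 1 or 3 or treated replicate 3 was left out.

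Desmosomes and pannexins each had 1 gene called. Ppl, periplakin, a protein that links desmosomes to keratin filaments, rose 4.59-fold in treated over control livers, from 11.4 ± 4.20 to 52.4 ± 18.8 CPM (adjusted p = 0.00351), and stood at 26.2 ± 3.81 CPM in model livers. Panx1, which forms channels that release ATP, stood at 0.672 ± 0.228 CPM in model livers and rose to 2.13 ± 0.275 CPM in the treated group (adjusted p = 0.0288) and 4.32-fold over control livers (adjusted p = 0.00579). The first of these calls ended when any 1 model or treated library was left out (highest adjusted p = 0.0932). Of 14 adherens junction genes, Nectin2, an adhesion molecule, fell 1.39-fold in treated compared with model and with control livers (adjusted p = 0.0285 and 0.0174), calls lost without TMM scaling and without several single libraries, and Ctnna1, alpha-catenin, rose 1.24-fold over control livers (adjusted p = 0.0401, lost in 11 of 17 alternatives).

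Of 16 tested regulators of epithelial junction genes, 0 were called in model against control livers with edgeR, with 3 lower at an unadjusted p under 0.05, 2 lower by DESeq2 and 0 by limma-voom. In treated livers 2 of the 16 were higher (12.5%, against 5.21% of all genes) and 5 lower (31.2%, against 4.44%) than in model livers. Against control livers 1 was higher (6.25%, against 9.36%) and 6 were lower (37.5%, against 8.47%). Cebpa, a transcription factor of mature hepatocytes, fell from 320.4 ± 53.0 CPM in the model group to 126 ± 19.5 CPM in the treated group (adjusted p = 0.000521). Zeb2, a repressor of epithelial genes that macrophages and other cells also carry, rose from 6.64 ± 0.118 to 12.3 ± 2.38 CPM (adjusted p = 0.0083). The summed macrophage markers were also higher in treated than in model livers, with 3 of 12 called higher (5.21% of all genes). Esrp2, an epithelial splicing regulator, fell 1.496-fold (adjusted p = 0.0114, lost without model replicate 1). Foxa2 and Foxa1, pioneer factors of liver genes, fell 2.33-fold and 1.97-fold in treated compared with control livers (adjusted p = 0.00124 and 0.00195).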

How the data were processed

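Liver polyadenylated RNA was read in 9 mouse libraries, 3 each of control, model and treated, grouped by the labels' descriptions. Reads were aligned with HISAT2, per the submitters' processing notes. Which quantifier, annotation and strand setting followed is not given in the sources used here. Genes and transcripts each have whole-number estimated counts and FPKM values, both made by the authors and used as deposited. Gene coordinates in the deposited FPKM table are those of GRCm38, and 34 of the 41 genes have the same start and end in GENCODE M21.

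Genes were kept with edgeR's filterByExpr (minimum count 10, minimum total 15), which left 18113 of 27945. Counts were scaled by TMM (factors 0.905 to 1.14) and fitted in 1 model of all 9 libraries with edgeR 4.0.16 (R 4.3.3), quasi-likelihood with robust estimation. P-values were Benjamini-Hochberg adjusted over all 18113 genes, and a gene was called under 0.05. CPM use TMM-scaled library sizes. The method was tested on simulated data. Intervals cover 95%.

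The genes, lists and markers were chosen with earlier results of these data known. By rule every tested junction gene is named, those below the filter by counts only (some genes are counted but not reported here), and of each further junction or regulator list up to 3 called genes of smallest p in each comparison. Alternatives were RLE scaling, no filter, at least 1 CPM in 3 libraries, DESeq2 1.42.0, limma-voom (limma 3.58.1), a replicate block, only the 6 libraries compared, leaving out each library and, chosen after seeing the data, library-size scaling without TMM.

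Marker lists not described in the results gave no call in lymphocyte, mesothelium and pancreas markers with edgeR in any comparison. In treated compared with control livers, neutrophil markers had 2 higher of 7, gut or gallbladder markers 1 lower of 3, keratinocyte markers 1 lower of 2, and erythroid markers 1 higher and 1 lower of 7. Of all genes 9.36% were called higher and 8.47% lower there.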

Additional observations from a re-analysis of the deposited data

How the results depend on the processing

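Of 23 results followed for single junction genes, 16 were called, and 9 of these lost their call under at least 1 of up to 17 alternatives; 7 uncalled results passed under at least 1, and 0 changed direction. With DESeq2, 868 genes were called in model against control livers (main analysis 202) and 2755 in treated against model livers (1748). Its junction gene counts were 3 higher and 4 lower in model against control, 2 higher in treated against model and 2 higher in treated against control livers, of which 1 was among the 29 tested with edgeR and the other was Cldn4, below that filter. The filter of at least 1 CPM in 3 libraries gave 1 junction gene higher in treated against model livers.

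Without TMM scaling the median log2 fold change of all genes moved to 0.04, 0.17 and 0.20 in model against control, treated against model and treated against control. The calls split into 97 higher and 92 lower (main 94 and 108), 1638 and 408 (main 943 and 805), and 3021 and 819 (main 1696 and 1535). Junction genes were then 1 higher and 2 lower in treated against model, and 4 lower in treated against control livers.

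Deviations of same-numbered libraries from their group means correlated between -0.11 and 0.11 over 9 pairs. Such weak correlation over genes cannot show that the libraries were unpaired. Model replicate 2 and treated replicate 2 shared the other main Gjb1 transcript described above. With the replicate block, 120 genes and 0 lower junction genes were called in model against control livers, so Jam2 and Gjc3 were no longer called (adjusted p = 0.0667 and 0.0622). Gjb2 in treated against model and Cldn1 and Gjb1 in treated against control livers also missed the threshold with the block (adjusted p = 0.0575, 0.0666 and 0.0587).

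Leaving out 1 library at a time gave 54 (without model replicate 2) to 213 genes in model against control, with 0 to 1 junction genes higher and 0 to 2 lower. Treated against model gave 882 (without model replicate 1) to 1660 genes, with 0 to 1 higher and 2 to 4 lower. Treated against control gave 2169 to 2996 genes, with 1 to 2 higher and 4 to 8 lower. Of 23 results for named genes of the further lists, 8 lost their call under at least 1 alternative.

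The 9 tested junction genes under 1 CPM in every group mean had standard errors of 0.62 to 1.66 on the log2 scale, which limits what could be called among them.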
